A study of Rattus norvegicus with 2 samples.

Results

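The insulin-like growth factor (IGF) group described here comprises 10 rat genes: the ligand gene Igf1, the receptor genes Igf1r and Insr, the receptor substrate gene Irs1, and the binding protein genes Igfbp1 to Igfbp6. Its members are all probe sets whose single annotated gene is on that list, which gave 15 of the 15923 probe sets on the array, for 10 of 10411 named genes. The cells were A7r5, an established line of vascular smooth muscle cells from embryonic rat aorta, kept in medium with 5.5 mM glucose. The tested pool had been infected for 72 hours with an adenovirus carrying human GLUT1, a facilitative glucose transporter, and the control pool for as long with the empty adenovirus, both at a multiplicity of infection of 10 (a multiplicity of 1 being 100 particles per cell). RNA from 3 days was pooled within each condition and read on 1 array, so the series holds 2 arrays, a single cell line and no replicate. Every difference below is a difference between these 2 pools, with no test, standard error or p-value behind it.

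Insulin-like growth factors act through the IGF-1 receptor, a tyrosine kinase closely related to the insulin receptor. The activated receptors phosphorylate substrates such as IRS1 and so engage the PI3K, AKT and mTOR branch and the RAS and MAPK branch. Secreted binding proteins hold the ligands outside the cell, where they prolong their life, keep them from the receptor or release them after cleavage by proteases. In vascular smooth muscle this system is known for promoting growth, migration and survival.

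Promoter sequences are shown for 4 members, chosen because Igfbp6 gave the largest difference, Igf1r and Igfbp2 are expressed and hold an E-box, and Igfbp1 holds the best known insulin-responsive element of the family. They are the 250 bases before the annotated start in RefSeq (rat build GRCr8), read 5′ to 3′ on the gene's strand, with the motif letters that were searched for in capitals.
Igfbp6: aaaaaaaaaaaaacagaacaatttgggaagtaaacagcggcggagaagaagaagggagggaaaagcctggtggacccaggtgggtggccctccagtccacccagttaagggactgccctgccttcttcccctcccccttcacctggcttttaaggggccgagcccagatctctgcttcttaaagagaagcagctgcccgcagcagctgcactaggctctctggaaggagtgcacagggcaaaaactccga
Igf1r: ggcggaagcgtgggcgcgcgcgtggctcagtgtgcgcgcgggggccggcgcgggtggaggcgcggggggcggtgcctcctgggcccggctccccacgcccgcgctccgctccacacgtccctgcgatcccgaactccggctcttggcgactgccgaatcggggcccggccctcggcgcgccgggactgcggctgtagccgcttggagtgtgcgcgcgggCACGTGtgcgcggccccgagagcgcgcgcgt
Igfbp2: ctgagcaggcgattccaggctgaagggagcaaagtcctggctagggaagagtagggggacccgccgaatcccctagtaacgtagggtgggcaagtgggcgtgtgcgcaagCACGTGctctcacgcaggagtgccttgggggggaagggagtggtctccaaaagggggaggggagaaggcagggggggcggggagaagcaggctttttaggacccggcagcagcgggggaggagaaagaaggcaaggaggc
Igfbp1: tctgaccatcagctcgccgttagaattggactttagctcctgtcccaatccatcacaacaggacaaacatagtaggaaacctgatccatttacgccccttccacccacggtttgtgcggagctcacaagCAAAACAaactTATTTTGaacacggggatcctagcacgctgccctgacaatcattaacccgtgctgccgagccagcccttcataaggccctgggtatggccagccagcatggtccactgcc
These windows lie at chr7:135154669-135154918 (plus strand) for Igfbp6, chr1:130959747-130959996 (plus strand) for Igf1r, chr9:81864561-81864810 (plus strand) for Igfbp2 and chr14:86261027-86261276 (plus strand) for Igfbp1.

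All 10 members had a promoter in the RefSeq table, and 4 motifs were searched on both strands of each upstream window. The E-box CACGTG, the palindrome that MAX-like and MLX-type factors bind, stood in the windows of Igf1r, 31 bases before the start, and of Igfbp2, 140 bases before it. It stood in 5.59% of the 33469 windows of all genes. The letters TGTTTTG and TATTTTG are variants of the insulin response element, through which FOXO factors activate Igfbp1 and insulin represses it in liver cells. Igfbp1 held both, TGTTTTG on the opposite strand at 121 bases and TATTTTG at 110 bases before the start, as 0.373% of all windows did. Igf1 held TGTTTTG alone, at 67 bases on the opposite strand, a variant found in 5.46% of all windows, while TATTTTG was found in 4.46%. The TATA box TATAAA, found in 12.9% of all windows, stood 40 bases before the start of Igfbp4. None of these letters overlapped another motif in the members' windows, and none of the 4 motifs was in the window of Igfbp6. A match describes the letters only.

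The deposited value of a probe set is a linear intensity. A gene was called expressed on both arrays when its probe set reached the median of each array, 508 on the GLUT1 and 508 on the empty virus array. The floor was 175, the 25th percentile of both arrays together, and values at or below it have no order. By this rule 4 of the 10 members were expressed on both arrays, namely Igf1r, Igfbp2, Igfbp4 and Igfbp6, with 5 probe sets. Igf1, Insr and Irs1 were dim, below the median on both arrays but above the floor on at least 1. The other 3, Igfbp1, Igfbp3 and Igfbp5, lay at or under the floor on both arrays with every probe set. For comparison, 57.45% of all named genes were expressed on both arrays, 26.19% were dim and 16.36% lay at or under the floor by their brightest probe set. Probe sets bind with different strength, so intensities are not ordered between genes. No detection calls stand behind any of these classes. Expressed on both arrays thus means at or above the median of each array and no more.

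**Figure D1:**
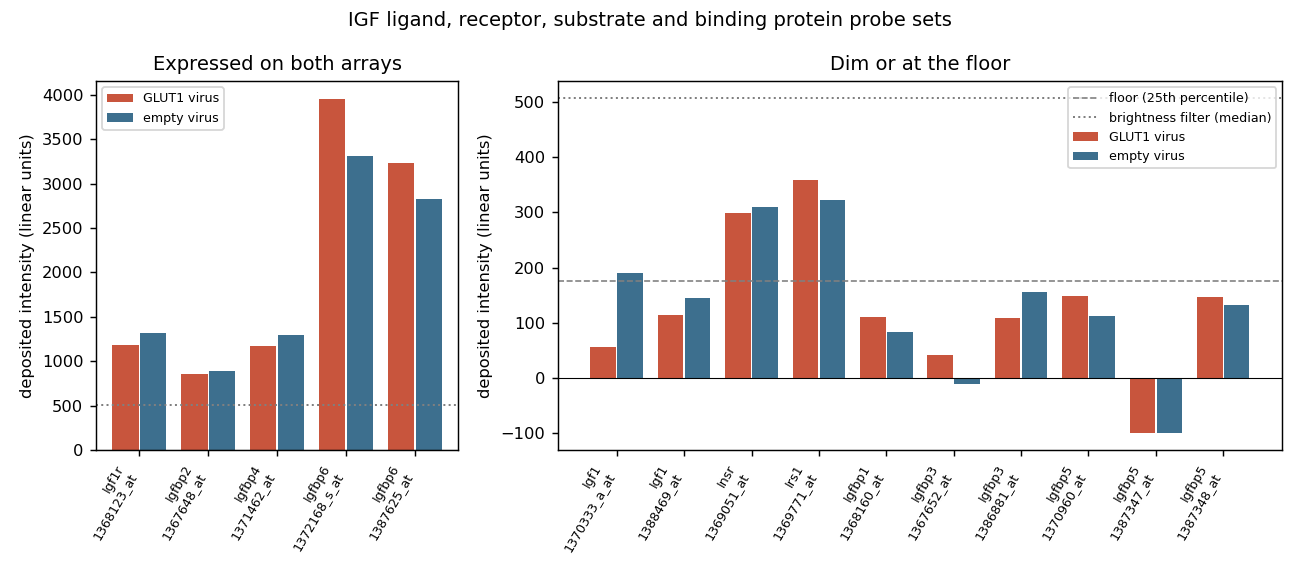
Deposited linear intensity of every member probe set on the GLUT1 array (red) and the empty virus array (blue), 1 array each, so there are no error bars; the left and right panels have different scales. The 5 probe sets on the left lie above the brightness filter of 507 (dotted), and those on the right lie below it, most of them under the floor of 175 (dashed).

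Among the binding proteins, Igfbp6 differed the most. IGFBP6 binds IGF-2 in preference to IGF-1 and is known as an inhibitor of IGF-2 action. Its probe set 1372168_s_at read 3957 on the GLUT1 array and 3312 on the empty virus array, a log2 ratio (GLUT1 over empty virus) of 0.26, or 19.6% higher. Its second probe set, 1387625_at, read 3229 on the GLUT1 array and 2832 on the empty virus array, a log2 ratio of 0.19, or 14.1% higher. Both probe sets were therefore higher in the GLUT1 pool, with a mean log2 ratio of 0.22. The suffix of the first marks a probe set that can match more than a single transcript, and the 2 probe sets read the same RNA, so they are no replicates of the condition. In bulk RNA, more cells that express a gene and more of its RNA per cell cannot be told apart.

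The size of the Igfbp6 difference can be set against the arrays themselves. The local spread, the scaled median absolute deviation of the log2 ratios of the probe set and its 250 nearest in brightness on either side, was 0.093 for the first probe set and 0.11 for the second. Their ratios were 2.76 and 1.76 times that spread. Of 6114 measured genes, those whose brightest probe set reached the median brightness of all probe sets (a mean log2 value of 8.99), 238 had a higher ratio than Igfbp6. Among the 702 genes with at least 2 measured probe sets, 18 had their 2 brightest both at least 1.1-fold higher in the GLUT1 pool, which is 2.56%, and Igfbp6 is 1 of them. In 8 of the 702 genes both ratios exceeded the smaller ratio of Igfbp6. The 2 brightest probe sets had the same sign in 356 of the 702 genes. The SD of a single log2 ratio, taken from the differences within these pairs, was 0.13. That SD is larger than the local spread of either Igfbp6 probe set and close to the SD of 0.14 over all measured genes. It covers pairs of every measured brightness, whereas the local spread is a scaled median absolute deviation at the brightness of Igfbp6. The SD and the local spread are thus unlike measures.

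**Figure D2:**
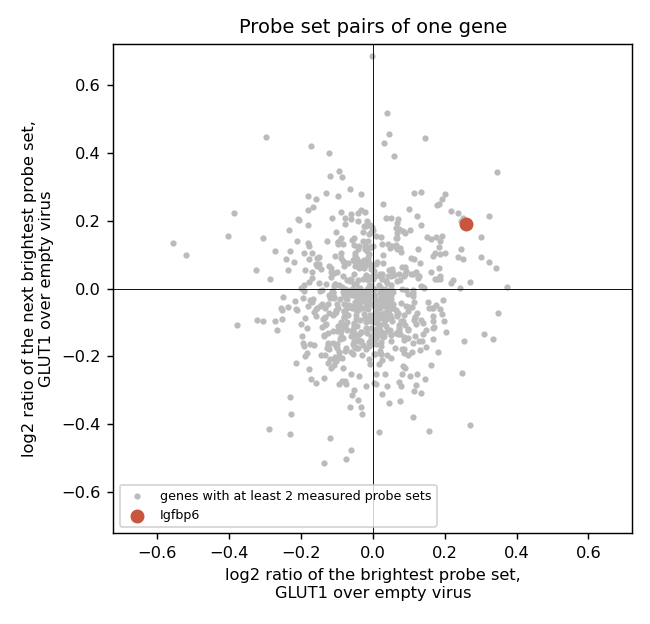
Log2 ratio (GLUT1 over empty virus) of the brightest probe set of a gene on the horizontal axis against that of its next brightest on the vertical axis, for the 702 genes with at least 2 measured probe sets (grey). Igfbp6 (red) lies at 0.26 and 0.19, in the quadrant where both are higher in the GLUT1 pool.

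The other binding proteins that were expressed stood closer to 0. Igfbp4 encodes a binding protein that mostly inhibits IGF action and is cleaved by the pappalysin protease PAPP-A. It read 1170 on the GLUT1 array and 1291 on the empty virus array, a log2 ratio of -0.14 and -0.936 times its local spread of 0.15. Igfbp2, whose product carries an RGD motif that binds integrins, read 861 on the GLUT1 array and 888 on the empty virus array. Its log2 ratio of -0.04 was -0.266 times the local spread, the smallest difference of the 4 expressed members. Each of these genes has 1 probe set, so no second reading stands beside it.

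Igfbp1, Igfbp3 and Igfbp5 gave no usable ratio. Igfbp1, a binding protein made mainly by the liver, read 110 on the GLUT1 array and 83 on the empty virus array. Igfbp3 encodes the main carrier of IGFs in blood, and its probe sets read 42 and 108 on the GLUT1 array, against -11 and 155 on the empty virus array. Igfbp5 encodes a binding protein that attaches to matrix and is often high in smooth muscle. Its 3 probe sets read 148, -99 and 146 on the GLUT1 array, against 113, -100 and 132 on the empty virus array. All 6 probe sets were at or under the floor on both arrays, so their differences of 1 to 53 units have no direction. In the GRCr8 gene table Igfbp2 and Igfbp5 neighbour each other on chromosome 9, and Igfbp1 and Igfbp3 on chromosome 14, with 0 other protein-coding genes between the genes of each pair. The pair on chromosome 9 thus joins an expressed gene and a gene at the floor, while both genes of the other pair lay at the floor.

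The receptor through which IGF-1 acts was expressed in both pools. Igf1r read 1187 on the GLUT1 array and 1313 on the empty virus array, a log2 ratio of -0.14, a difference of -9.52%. This is about as large as its local spread of 0.14, and 708 of the 6114 measured genes had a lower ratio. Insr, which encodes the insulin receptor, was dim, at 299 on the GLUT1 array and 310 on the empty virus array. Its log2 ratio of -0.05 is small beside a local spread of 0.28 at that brightness. Irs1, the substrate of both receptors, was dim as well, at 359 on the GLUT1 array and 322 on the empty virus array, a log2 ratio of 0.16 with a local spread of 0.27. Each of these differences is about the local spread or smaller.

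The ligand gene Igf1 lay near or under the floor. Probe set 1370333_a_at read 56 on the GLUT1 array and 190 on the empty virus array, and 1388469_at read 114 on the GLUT1 array and 145 on the empty virus array. Of these 4 readings only the 190 lies above the floor of 175. No fold is given, since the GLUT1 reading of that probe set is at the floor and the other probe set is at the floor on both arrays.

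Over the 4 measured members the log2 ratio had a median of -0.09, with 1 above and 3 below 0. Over all 6114 measured genes the median was 0.01, with 52.1% above 0, an SD of 0.14 and 5th and 95th percentiles of -0.21 and 0.23. Igfbp6 is the 1 measured member outside those percentiles. None of the measured members reached 2-fold, a size that 0.0164% of measured genes reached in the higher and 0% in the lower direction. None reached a log2 ratio of 0.32 either way, beside 1.83% of measured genes at or above 0.32 and 1.52% at or below its negative. At 1.1-fold, 1 member was higher (Igfbp6) and 2 were lower (Igf1r and Igfbp4), where 14.7% of measured genes were higher and 12.7% lower. With 4 genes such shares cannot be set apart from the background.

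**Figure D3:**
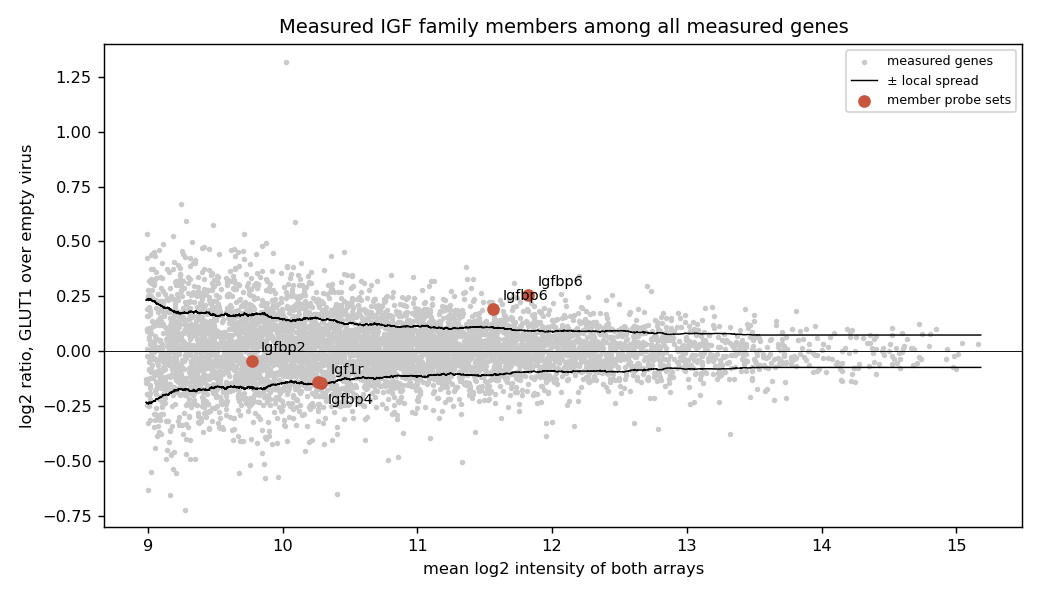
Log2 ratio (GLUT1 over empty virus) against the mean log2 intensity of both arrays for all measured genes (grey) and the 5 measured member probe sets (red); black lines mark plus and minus the local spread. Both Igfbp6 probe sets lie above the upper line, Igf1r and Igfbp4 lie near the lower line at -0.14, and Igfbp2 lies inside the lines.

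Other genes of the IGF and insulin pathway were taken from 8 lists by role. Of 89 listed genes 71 had a usable probe set and 47 were measured, with a median log2 ratio of 0.01, 25 above and 22 below 0. At a log2 ratio of 0.32 either way, 1 was higher and 1 lower, and none reached 2-fold. Of the 47, 5 were at least 1.1-fold higher and 8 at least 1.1-fold lower, beside 14.7% and 12.7% of all measured genes.

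On the ligand side, Igfbp7, a low-affinity relative of the binding proteins, read 6405 on the GLUT1 array and 6315 on the empty virus array, a log2 ratio of 0.02. Ins1, 1 of the insulin genes of the rat, read 651 on the GLUT1 array and 735 on the empty virus array, a log2 ratio of -0.17. Rats carry the nearly identical Ins2, which was dim, at 204 on the GLUT1 array and 306 on the empty virus array. Whether the Ins1 probe set reads insulin RNA in these cells was not tested, so its reading is uncertain. Igf2, the preferred ligand of IGFBP6, was named after its values were seen. It was dim, and the 2 of its 4 probe sets above the floor ran opposite ways. The brighter read 318 on the GLUT1 array and 446 on the empty virus array, a log2 ratio of -0.49 with a local spread of 0.26. A second Igf2 probe set read 274 on the GLUT1 array and 207 on the empty virus array, a log2 ratio of 0.41, so no direction is given for Igf2.

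Among the other receptors, Igf2r, which clears IGF-2 by carrying it to lysosomes, read 2045 on the GLUT1 array and 2268 on the empty virus array, a log2 ratio of -0.15. A second measured probe set of Igf2r gave -0.01. The endocytic receptor gene Lrp1 had a log2 ratio of -0.16 and the PDGF receptor gene Pdgfrb 0.02. The 5 measured genes for substrates and adaptors had a median of -0.08, with 4 below and 1 above 0. Irs2, the second main receptor substrate, was measured where Irs1 was dim, at 1523 on the GLUT1 array and 1656 on the empty virus array, a log2 ratio of -0.12. The adaptor genes Grb14 and Grb2 had log2 ratios of -0.08 and -0.08. Over the 8 measured genes of these lists, the largest distance from 0 was 1.52 local spreads.

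Genes that dampen receptor signalling held the pathway's highest ratio. Ptpn1 encodes the phosphatase PTP1B, which removes phosphate from the insulin and IGF-1 receptors. It read 857 on the GLUT1 array and 681 on the empty virus array, a log2 ratio of 0.33 and 1.94 times its local spread. Ptprf, a receptor-type phosphatase gene, had a log2 ratio of 0.19, but its second measured probe set gave -0.08. The ubiquitin ligase gene Nedd4 had a log2 ratio of -0.10. The 7 measured dampers had a median of 0.01.

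The measured genes of the downstream branches scattered around 0. In the PI3K and AKT branch the median was 0.04 over 10 measured genes, 7 above and 3 below 0. Pik3r3, a regulatory subunit of PI3K, read 593 on the GLUT1 array and 743 on the empty virus array, a log2 ratio of -0.32. Gsk3b, a kinase that AKT inhibits, read 563 on the GLUT1 array and 465 on the empty virus array. Its log2 ratio was 0.28 with a local spread of 0.24. The empty virus reading of Gsk3b is below the median of 508, so the gene counts as measured only by its mean. Foxo4, a transcription factor that AKT keeps out of the nucleus, had a log2 ratio of 0.16. The mTOR branch had a median of 0.02 over 12 genes. Mlst8, a subunit of both mTOR complexes, had a log2 ratio of -0.26, the mTOR inhibitor gene Deptor -0.25, and Tsc2, which restrains mTOR, 0.20. In the RAS and MAPK branch only 4 of 11 listed genes had a usable probe set, so most of it was not read. These 4 were all measured, with a median of -0.02. Nras had a log2 ratio of -0.27, with -0.10 from its second measured probe set, Araf 0.12 and Map2k1 -0.11. Over the 26 measured genes of these branches, the largest distance from 0 was 2.17 local spreads.

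Of the proteases that cut binding proteins and their inhibitors, 12 had a usable probe set and 4 were measured. Htra1, a serine protease that cleaves IGFBP5 among others, read 6772 on the GLUT1 array and 6322 on the empty virus array, a log2 ratio of 0.10. The lysosomal protease gene Ctsd had a log2 ratio of 0.09, and Stc1, a relative of the pappalysin inhibitor STC2, -0.14. The median of the 4 was 0.03. Pappa2 was dim, at 252 on the GLUT1 array and 248 on the empty virus array, and was named after its values were seen.

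**Figure D4:**
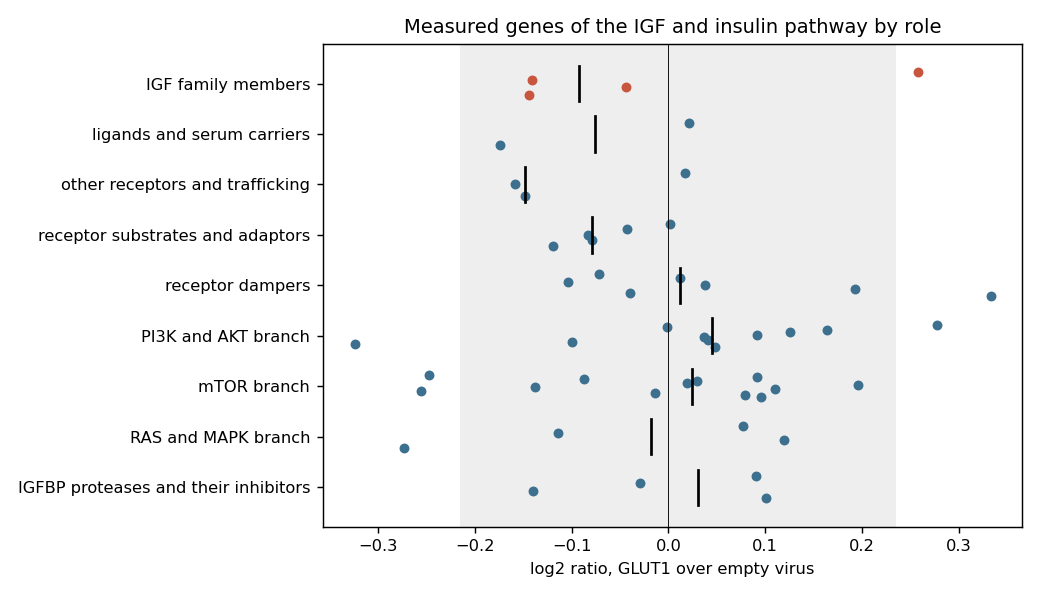
Log2 ratio (GLUT1 over empty virus) of each measured gene, by role; vertical bars are list medians and the grey band spans the 5th to 95th percentile of all measured genes, -0.21 to 0.23. Igfbp6 lies right of the band at 0.26, as do Ptpn1 at 0.33 and Gsk3b at 0.28, while Pik3r3, Nras, Mlst8 and Deptor lie left of it. The band does not follow brightness, and Gsk3b is below the median of 508 on the empty virus array.

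The label of the cells was checked on markers. Of 12 smooth muscle markers 10 were measured, with a median log2 ratio of 0.03. For comparison, 6114 of all 10411 named genes were measured. The smooth muscle actin gene Acta2 read 16687 on the GLUT1 array and 16303 on the empty virus array, and the myosin gene Myh11 was dim, at 228 on the GLUT1 array and 227 on the empty virus array. Tagln read 7369 on the GLUT1 array and 7153 on the empty virus array, and Cnn1 read 3114 on the GLUT1 array and 2942 on the empty virus array. Measured markers of other cell types were Esam, 1 of 5 endothelial markers with a probe set, Cd14 and C1qb, 2 of 6 leukocyte markers, Krt8, 1 of 4 epithelial markers, and Acta1, 1 of 6 skeletal muscle markers. Of 4 hepatocyte markers 0 were measured. The defining markers Pecam1, Ptprc, Cdh1 and Myod1 lay at or under the floor on both arrays. Summed intensities of the leukocyte markers were 3163 on the GLUT1 array and 3433 on the empty virus array. Those of the endothelial markers were 838 on the GLUT1 array and 1003 on the empty virus array. Of the endothelial markers, Esam read 479 on the GLUT1 array, below the median of 508, and 584 on the empty virus array. Both sums include readings at or under the floor, so no direction is given for them. Summed epithelial markers were 6734 on the GLUT1 array and 6369 on the empty virus array, mostly from Krt8. Krt8 alone read 6500 on the GLUT1 array and 6193 on the empty virus array. Summed skeletal muscle markers were 3100 on the GLUT1 array and 3107 on the empty virus array, mostly from Acta1. Acta1 alone read 2240 on the GLUT1 array and 2339 on the empty virus array. These sums too include readings at or under the floor. The measured leukocyte markers differed in sign, with C1qb at 1014 on the GLUT1 array and 1352 on the empty virus array, a log2 ratio of -0.41, and Cd14 at 1398 on the GLUT1 array and 1235 on the empty virus array, a log2 ratio of 0.18. C1qb lay -2.80 local spreads from 0. The part of other cell types in the member differences was not tested. The rat probe set of Slc2a1 read 3121 on the GLUT1 array and 2902 on the empty virus array. Groups were taken from the sample titles and source names, since the description field reads the same for both samples, and every direction given here rests on them. The Slc2a1 probe set does not check the labels, since the transgene was human and the binding of its RNA to rat probes is unknown here.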

How the data were processed

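Biotin-labelled cRNA from 5 µg of total RNA was read on 1 array per group, per the labels' protocols. The deposited values are linear intensity values per probe set, whole numbers with about 3% at or below 0 (3.04% on the GLUT1 array, 3.01% on the empty virus array). How probe sets were summarised, background-corrected and equalised is not given in the sources. Both columns share a median of 508, so a change in total mRNA cannot be seen. Detection calls were not used here.

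Gene names came from the platform's annotation and were brought up to date by gene ID (12748 of 12783 single-gene probe sets matched GRCr8). The GLUT1 array was scaled to a median log2 ratio of 0 over probe sets above the median on both arrays (a shift of 0.0012). Values were raised to the floor (25th percentile, 175) and log2 was taken. A gene was represented by its brightest probe set and counted as measured at or above the median mean log2 value. With 1 array per group no test was run, and the number of arrays limits the precision. Because a pattern over 2 arrays is a single ratio, genes were not ranked by likeness to a member.

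The members, lists and thresholds were chosen with earlier results of these data known. Named were all members, the 3 measured genes of each pathway list with the largest absolute ratio, Acta2, Tagln, Cnn1, Myh11 and Slc2a1. Other names are marked, are defining markers or are measured markers of other cell types. Ins2 was named outside this rule, beside Ins1. Alternatives changed the scaling, floor, filter, probe set rule and thresholds. The steps were run on simulated data with known folds put in. That run checked medians over groups of genes and not the precision of the ratio of a single gene. Python 3.11.15, numpy 2.4.6 and pandas 2.3.3 were used.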

Additional observations from a re-analysis of the deposited data

How the results depend on the processing

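No paired analysis was possible because a single array stands for either condition. The log2 ratio of Igfbp6 ranged from 0.22, as the mean of its probe sets, to 0.26 over 8 alternatives of scaling, floor, filter and averaging. Igf1r stayed within -0.15 to -0.14, Igfbp4 at -0.14 and Igfbp2 at -0.04 over 7 alternatives each. These 3 have 1 probe set each, above every floor tried, so floor and averaging could not move them. The filter at the 75th percentile left Igfbp6 as the only measured member, and the members' median became 0.26. With no filter it was -0.02 over 10 genes, of which 3 enter at 0 by the floor. No member reached 2-fold, 1.5-fold or a log2 ratio of 0.32 under any alternative run at those thresholds, and 3 reached 1.1-fold. With no filter the median of the other receptors was 0 over 7 genes. For 5 of the 8 pathway lists the median changed sign or reached 0 under at least 1 alternative. That of the receptor dampers, for example, ranged from -0.04 to 0.02, and the cause was not tested.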
